A study of Danio rerio with 24 samples.

Results

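The transcripts followed here are those of the glucocorticoid receptor gene nr3c1 and of sgk1, the serum and glucocorticoid regulated kinase, together with fkbp5, tsc22d3 and hsd11b2, whose products sit in the same hormone circuit. Members were the probes that carried one of these 5 symbols in the probe table of the array. They came to 6 probes of 16512 on each array, with 3 probes for nr3c1 and 1 each for sgk1, fkbp5 and tsc22d3, while hsd11b2 had no probe under that symbol. The genes were chosen on exposed minus control differences of these same arrays, which were already known, so their levels and differences are given as a description, without p-values.

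The receptor encoded by nr3c1 waits in the cytoplasm in a complex with heat shock proteins, binds cortisol, moves to the nucleus and switches genes on or off, and in liver it is best known for raising the genes of gluconeogenesis and amino acid breakdown. Fkbp5 is a cochaperone in that complex that lowers the receptor's affinity for the hormone, and it is itself induced by the hormone in mammals. Tsc22d3, known in mammals as the glucocorticoid-induced leucine zipper, restrains inflammatory transcription factors, and hsd11b2 encodes the enzyme that converts cortisol to inactive cortisone. Sgk1 is a kinase that acts downstream of PI3-kinase on ion channels, transporters and the sodium pump, and in mammalian cells its gene answers to glucocorticoids, mineralocorticoids, serum and osmotic stress.

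Livers came from adult zebrafish, 6 months to 1 year old, obtained from a fish farm and kept either in clean water or in water with mercuric chloride (HgCl2) at a nominal 200 μg/L, renewed daily, for 8, 24, 48 or 96 h. The 8 groups, control and HgCl2 at each time, held 3 arrays each, and each array carried RNA of 4 livers pooled, labelled with Cy5, beside a Cy3 reference pooled from male and female wild-type fish. The pools average over their fish, the sex of the fish in a pool is not given, and no dye swap was made. The value used throughout is the log2 ratio of Cy5 to Cy3 after background correction and loess normalisation of each array, and a difference is the mean of the exposed arrays minus the mean of the controls of the same time, ± the standard error (SE) of a limma fit over all 24 arrays.

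Array brightness, as the median Cy5 over all spots, was 253 to 902 among the 12 controls and 316 to 789 among the 12 exposed arrays, and log ratios of arrays in a group correlated with r of 0.292 to 0.713 over all probes. On each array 111 to 2920 spots were blank, meaning that 10% or fewer of their pixels stood above the background plus 2 SD in both channels. Blank spots at 8 h numbered 177, 111 and 1158 on controls and 1868, 2692 and 2920 on exposed arrays. The median Cy5 background there was 90, 73 and 91 against 147, 183.5 and 149. Median Cy5 at 96 h was 683, 902 and 721 on controls and 570, 565 and 546 on exposed arrays. At 48 h the median Cy5 background was 109, 96 and 86 on controls and 63, 83 and 67 on exposed arrays. Such array traits and treatment cannot be told apart at 8, 48 and 96 h, for any gene below. At 24 h that background was 72, 89 and 103 against 155, 54 and 67, so exposed arrays lay on both sides of the controls. The part of such traits in the 24 h differences was not tested. The hepatocyte markers on the array, 10 of the 23 listed, gave summed Cy5 levels of 242056 to 333673 in controls and 272995 to 412813 in exposed livers. At 96 h, when 7.48% of all probes were higher and 5.42% lower, 5 of the 10 hepatocyte genes and 5 of 11 leukocyte genes were higher, and 3 of 4 exocrine pancreas genes, 2 of 5 red blood cell genes and 1 of 4 intestine genes were lower. Ovary markers, of which 8 of 19 were on the array, had summed Cy5 levels of 2574 to 16187 in controls and 4584 to 110865 in exposed livers, and 3 of the 8 were higher at 24 h and 2 at 48 h, when 6.61% and 5.29% of all probes were, with 0 at 8 and 96 h. Red blood cell genes were also lower, 2 of 5, at 24 and 48 h, and so was 1 of 4 exocrine pancreas genes. Of all probes 4.23% and 3.37% were lower then. Of the 10 hepatocyte genes 2 were higher and 1 lower at 24 h, and 2 were higher at 48 h. Of the 11 leukocyte genes 1 was lower at 24 h and 1 higher at 48 h. In pooled tissue, a change in the share of a cell type and a change of RNA per cell cannot be told apart.

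The sgk1 transcript was higher in exposed than in control livers at every time. The log2 ratio in the 3 control arrays at 8 h was -0.59, -2.07 and -1.68, against 0.72, -0.41 and -0.32 in the exposed arrays. The 24 h controls gave -2.17, -2.10 and -1.19 and the 24 h exposed arrays -0.18, 1.18 and 1.38. All exposed arrays lay above all controls at both times, which 9.44% of the 16340 probes tested did at 8 h and 14.7% at 24 h.

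At 48 h the control arrays for sgk1 read -1.98, -2.16 and -0.97 and the exposed arrays 0.80, 0.39 and -0.52. At 96 h they read -1.71, -1.73 and -1.38 in controls and 0.13, 1.03 and -0.05 after exposure. Again no exposed array reached down to a control, a pattern shown by 15.9% of probes at 48 h and 19.4% at 96 h. Across times, the highest of the 12 controls was -0.59 and the lowest of the 12 exposed arrays was -0.52, so the sets were parted by a narrow gap, between control array 1 of 8 h and exposed array 3 of 48 h. Of all probes, 173 had every exposed array above every control, or 1.06%.

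**Figure D1:**
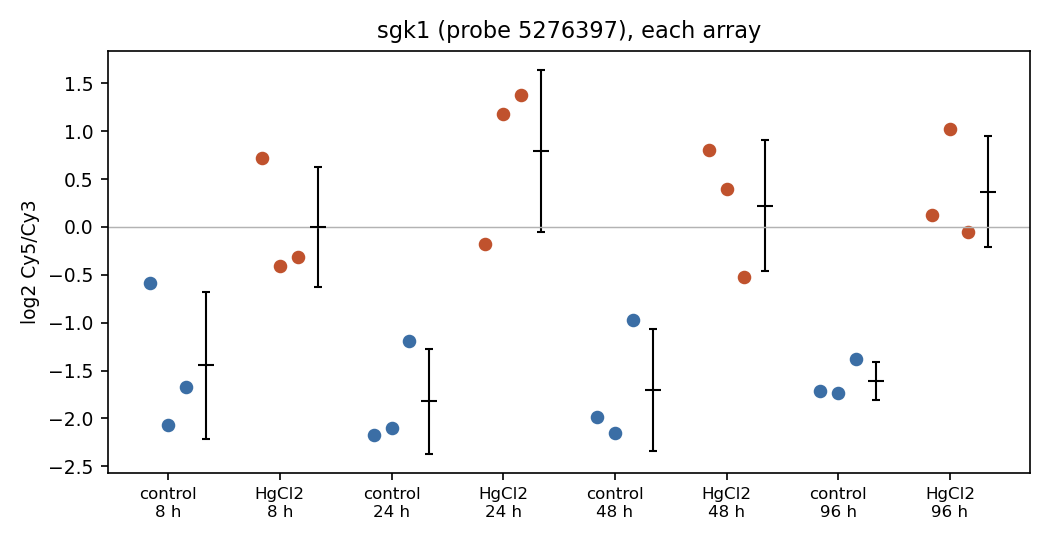
The log2 ratio of Cy5 to Cy3 for sgk1 on each of the 24 arrays, by treatment and time, with the mean and SD of each group of 3 beside the points. Controls lie between -2.17 and -0.59 and exposed arrays between -0.52 and 1.38.

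The difference for sgk1 came to 1.44 at 8 h, 2.61 at 24 h, 1.93 at 48 h and 1.98 at 96 h (SE 0.47 each, n = 3 arrays a group), or 2.72-, 6.11-, 3.80- and 3.93-fold. The average over the 4 times was 1.99 ± 0.23. In order of level, the control groups of 24, 48, 96 and 8 h came first, with means of -1.82, -1.70, -1.61 and -1.45, and their ranges overlapped one another. The exposed groups followed in the order 8, 48, 96 and 24 h, with means of -0.00, 0.22, 0.37 and 0.79, and neighbours in that order overlapped as well. Only the step from the 8 h controls to the 8 h exposed livers separated neighbouring groups.

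The channels of the sgk1 spot were also read apart. After background subtraction the sgk1 spot gave Cy5 intensities of 182 to 846 in controls, with a median of 443, and of 322 to 8201 in exposed livers, with a median of 2342. The Cy3 reference gave 776 to 2340 beside the controls and 391 to 2433 beside the exposed samples, with medians of 1466 and 1479. The dimmest exposed spot, 322 on array 3 of 8 h, had the dimmest reference too, at 391, so its place above the controls came from the ratio and not from Cy5. With the Cy5 channel alone the differences were 1.05, 2.46, 1.65 and 1.83 from 8 to 96 h.

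Leaving out any array left the sgk1 difference between 1.08 and 1.87 at 8 h, 2.32 and 3.1 at 24 h (without exposed array 1), 1.64 and 2.3 at 48 h, and 1.65 and 2.19 at 96 h. The arrays fell into 2 sets by their blank spots, described with fkbp5 further on, and sgk1 was read in both. On the 8 arrays without an fkbp5 signal, the 4 controls reached at most -0.97 and the 4 exposed arrays lay at -0.41 or above. On the other 16, the highest control was -0.59 and the lowest exposed array -0.52. Among the 8, the controls were of 48 and 96 h and the exposed arrays of 8 and 24 h. Blank spots there numbered 667 to 877 on controls and 1868 to 2920 on exposed arrays. On the other 16, the median Cy3 background was 204 to 358 on controls and 397 to 705 on exposed arrays. The split is thus a description and cannot part treatment from time or from such array traits.

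Over the 24 arrays, the named genes whose log ratios ran most alike with sgk1 were tcn2, which encodes a carrier of vitamin B12 (r = 0.942), crema, a regulator of cyclic AMP responsive genes (r = 0.938), edem1, which sorts misfolded glycoproteins out of the endoplasmic reticulum (r = 0.926), slc16a9a, a monocarboxylate transporter (r = 0.924), and clpxb, part of a mitochondrial protease (r = 0.924). Within groups, with the group means removed, these r were 0.745, 0.806, 0.584, 0.769 and 0.683. The genes running most opposite were nucks1b (r = -0.895), the alcohol dehydrogenase adh8a (r = -0.895) and the fatty acid binding protein fabp3 (r = -0.876). The 24 arrays share the reference, the treatment and the times, so these correlations describe and test nothing. The sgk1 ratio correlated with the summed ovary level at r = 0.598, with the red blood cell level at r = -0.658, with the intestine, exocrine pancreas and leukocyte levels at r = -0.535, -0.487 and -0.245 and with the hepatocyte level at r = 0.415 over the same arrays, and the part of those cells in the sgk1 difference was not tested.

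The 3 probes named nr3c1 did not run alike. Probe 5279858 was bright and was far higher in exposed livers, whereas probes 5270877 and 5272387 were dim and showed no such rise. Over the 24 arrays the bright probe correlated with the dim ones at r = -0.276 and -0.367, and the dim ones with each other at r = 0.405.

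For probe 5279858 the controls read 0.93, -2.35 and -3.40 at 8 h and the exposed arrays -2.17, 1.07 and 1.49. At 24 h the controls read -3.38, -2.29 and -2.67 and the exposed arrays 1.66, 1.66 and 1.00. The groups overlapped at 8 h. By 24 h all exposed arrays lay above all controls, as for 14.7% of all probes.

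At 48 h the same probe gave 1.2, -2.83 and -1.69 in controls and 4.43, 1.71 and 1.58 after exposure. At 96 h it gave 0.29, 0.75 and 0.35 in controls and 1.41, 2.39 and 4.55 after exposure. At both of these times each exposed array stood above each control of its time, as for 15.9% of all probes at 48 h and 19.4% at 96 h. Yet the control arrays of 8 and 48 h spanned more than 4 log2 units. The differences were 1.74, 4.22, 3.68 and 2.32 at 8, 24, 48 and 96 h (SE 1.11 each), and 2.99 ± 0.56 on average. Cy5 was saturated on exposed array 1 of 48 h and exposed array 3 of 96 h, at 65442 and 65445 after background subtraction, so that their ratios, the highest of all 24, are bounds from below. Without those arrays the differences were 2.75 at 48 h and 1.43 at 96 h. Without control array 1 of 8 h the difference there was 3.00, and without control array 3 it was 0.84. Set against all 12 controls, the differences were 1.39, 2.70, 3.83 and 4.04 from 8 to 96 h, so that the 24 h value was over 1.5 times smaller and the 96 h value over 1.5 times larger than against the controls of its own time.

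The other nr3c1 probes were dimmer. Probe 5270877 gave 70 to 794 in Cy5 beside the controls and 46 to 328 beside exposure, and probe 5272387 gave 106 to 268 and 14 to 383, with 1 blank spot on exposed array 2 of 8 h. The Cy3 reference was dim on them too, at 94 to 900 and 81 to 417 over the 24 arrays, against 1980 to 6139 for probe 5279858. The differences for probe 5270877 were -0.20, -0.02, -0.39 and -0.57 at 8, 24, 48 and 96 h (SE 0.42), and those for probe 5272387 were -0.62, -0.25, -0.03 and -0.26 (SE 0.22).

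Of these 8 differences, that of probe 5270877 at 48 h had all exposed arrays below the controls, which 13.8% of probes did at that time. The log2 ratios there were 0.25, 0.13 and -0.23 in controls and -0.28, -0.39 and -0.35 after exposure. At 96 h the value rested on exposed array 3, at -2.10, and was 0.18 without it. The 8 h value of probe 5272387 was -0.46 without the blank spot, and its 96 h value was 0.41 in the Cy5 channel alone, so no direction is given for it there. Among the 3 probes named nr3c1, a rise was therefore read with the bright probe alone. Whether that is a rise of the nr3c1 transcript was not tested. The dim probes showed no such rise, on spots whose reference was dim as well. Probe sequences were not used here, so what each probe binds was not tested.

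**Figure D2:**
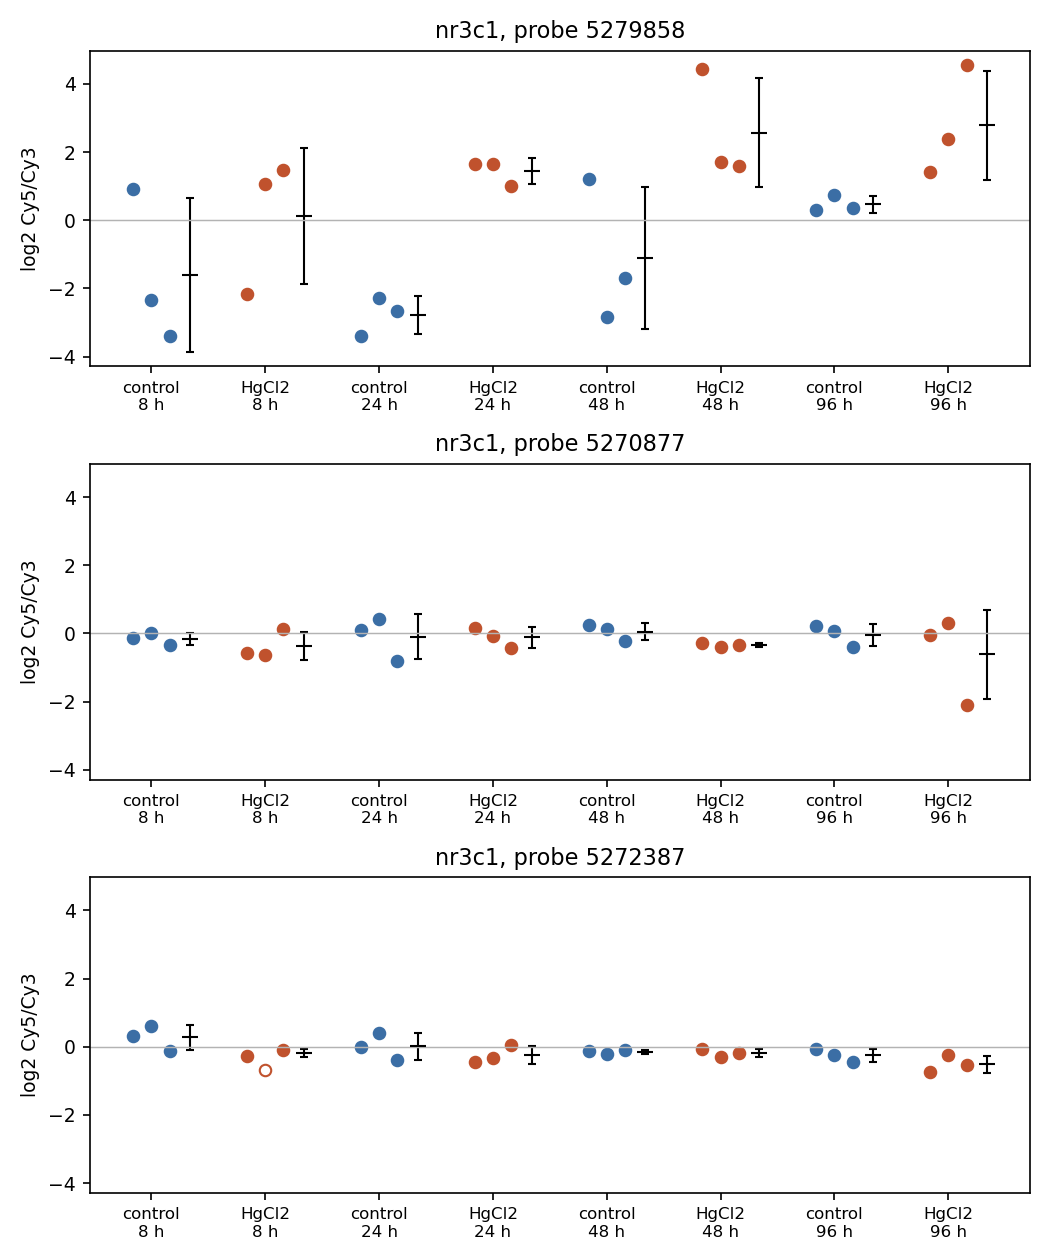
The log2 ratio of Cy5 to Cy3 on each array for the 3 probes named nr3c1, on a common scale, with group mean and SD of the spots not blank; the open circle is a blank spot. Probe 5279858 runs from -3.40 to 4.55, while probes 5270877 and 5272387 stay between -2.10 and 0.62.

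The genes that ran most alike with the bright nr3c1 probe were aspm, a spindle pole protein (r = 0.997), the egg coat genes zp3a.1 (r = 0.988) and zp3 (r = 0.985), vwa1 (r = 0.974), and ccnb1, the mitotic cyclin B1 (r = 0.972). Within groups the r were 0.993, 0.970, 0.970, 0.935 and 0.944, so that replicate arrays differed in the same way for all of them. Most opposite ran ftr82 (r = -0.845), dharma (r = -0.826) and agbl4 (r = -0.809).

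The summed Cy5 level of the 8 ovary markers, zp3a.1 and zp3 among them, followed this probe at r = 0.939, and followed the dim probes at r = -0.362 and -0.291. Since zp3a.1 was picked for its likeness to the probe over these same arrays, how closely the pair runs is a description, and no test of it is given. Of the other genes on the ovary list, cldnd, zar1, rbpms2b and zp3b followed the probe at r = 0.934, 0.922, 0.911 and 0.884. The germ cell genes ddx4 and dazl, on the same list, followed it less closely, at r = 0.403 and 0.643. The differences of ddx4 and dazl lay between -0.59 and 0.45 with adjusted p of 0.461 or more in the limma fit. They were chosen after their values were seen. The part of ovary RNA in the reading of probe 5279858 was not tested.

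**Figure D3:**
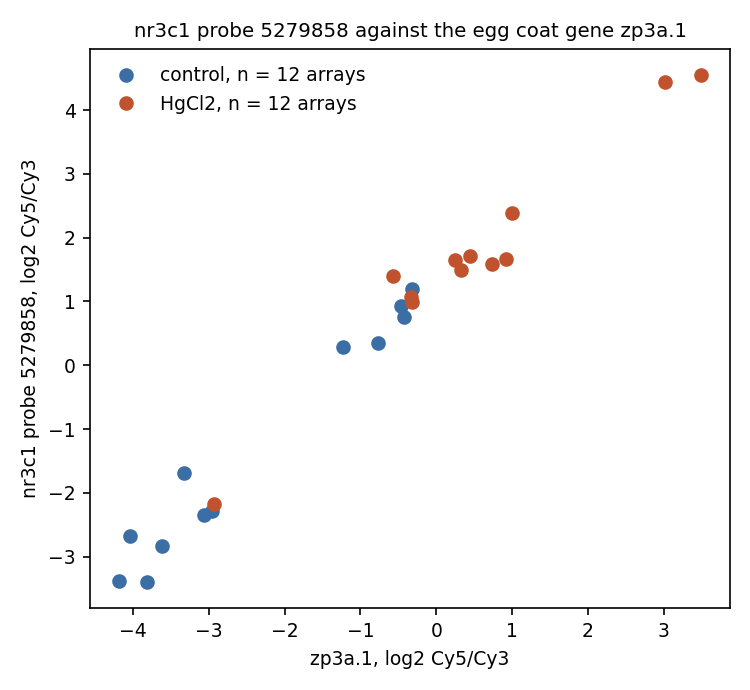
Log2 ratio of nr3c1 probe 5279858 (vertical) against that of the egg coat gene zp3a.1 (horizontal), 1 point an array, 12 control and 12 exposed. Both treatments lie along one line, r = 0.988 over the 24 arrays, with exposed arrays mostly at its upper end. The gene was picked for this likeness.

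The fkbp5 probe was readable on part of the arrays. Its spot was blank in both channels on 8 of 24 arrays: control array 3 of 48 h, all 3 controls of 96 h, all 3 exposed arrays of 8 h and exposed array 1 of 24 h. On those arrays the background-subtracted Cy5 lay between -13 and 6 and the Cy3 between -34 and 5. Elsewhere the Cy5 was 275 to 1372 in controls and 1450 to 4298 in exposed livers. The median Cy5 over all spots of those arrays was 253 to 380 on controls and 505 to 789 on exposed arrays. The reference RNA was the same on every array, and 85 probes were blank on exactly these 8 arrays, of which 14 had at least 60% of their pixels above background in both channels on all 16 others. Blank spots thus went with groups of arrays, and at 8 and 96 h these groups and the treatment cannot be told apart, so no fkbp5 difference is given for those times.

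At 24 h the fkbp5 ratio was -1.13, -1.12 and -1.07 in the 3 controls and -0.43 and -0.34 in the 2 exposed arrays that had the spot, a difference of 0.72. At 48 h it was -2.56 and -2.75 in the 2 controls that had the spot and -0.85, -0.21 and -1.04 in the 3 exposed arrays, a difference of 1.96. Measured exposed arrays thus read above measured controls at both times, and the share of all probes parted on these same arrays was not counted. The median Cy3 background at 24 h was 317, 349 and 331 on measured controls and 536 and 572 on measured exposed arrays. At 48 h it was 301 and 358 against 397, 627 and 498. Among measured arrays, such array traits and treatment cannot be told apart at 24 and 48 h either. With the blank spots kept, the fit gave 0.83 and 0.99 (SE 0.47), and in the Cy5 channel alone, blank spots included, it gave -1.13 and 2.36. The controls of 8 h read -1.26, -1.49 and -2.19, and the exposed arrays of 96 h read -0.64, -0.47 and -0.45. Neither of these groups has a counterpart with a measured spot at its own time, and no comparison is made for them.

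The tsc22d3 ratio was lower in exposed livers at 24 and 96 h and showed no such gap at 8 and 48 h. At 24 h it was -0.55, -0.15 and -1.29 in controls and -1.31, -1.57 and -1.94 after exposure. At 96 h it was -1.27, -1.29 and -0.57 in controls and -2.03, -1.67 and -1.76 after exposure. Exposed arrays lay below all controls at these times, by a narrow gap at 24 h (-1.29 against -1.31), and 13.1% of probes did so at 24 h and 17.1% at 96 h.

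At 8 h tsc22d3 gave -0.65, -2.18 and -1.57 in controls and -1.52, -1.55 and -0.55 after exposure. At 48 h it gave -1.12, -1.82 and -0.62 against -1.73, -0.76 and -1.08. These groups overlapped. From the earliest time to the latest the differences were 0.26, -0.94, -0.00 and -0.78 (SE 0.39), and their average was -0.37 ± 0.19. Set against all 12 controls, the 24 h difference was -0.52.

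The lower tsc22d3 ratio at 96 h came with a brighter reference. The Cy3 intensity of the spot was 1738, 1822 and 1978 on the 96 h controls and 3656, 3345 and 3931 on the exposed arrays, whereas Cy5 was 767, 1028 and 1441 against 930, 1190 and 1170. In the Cy5 channel alone the 96 h difference was 0.50 and the 24 h difference -1.18. The 96 h controls were all arrays with a blank fkbp5 spot and the 96 h exposed arrays were not, so the direction of tsc22d3 at 96 h is not settled by these arrays.

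**Figure D4:**
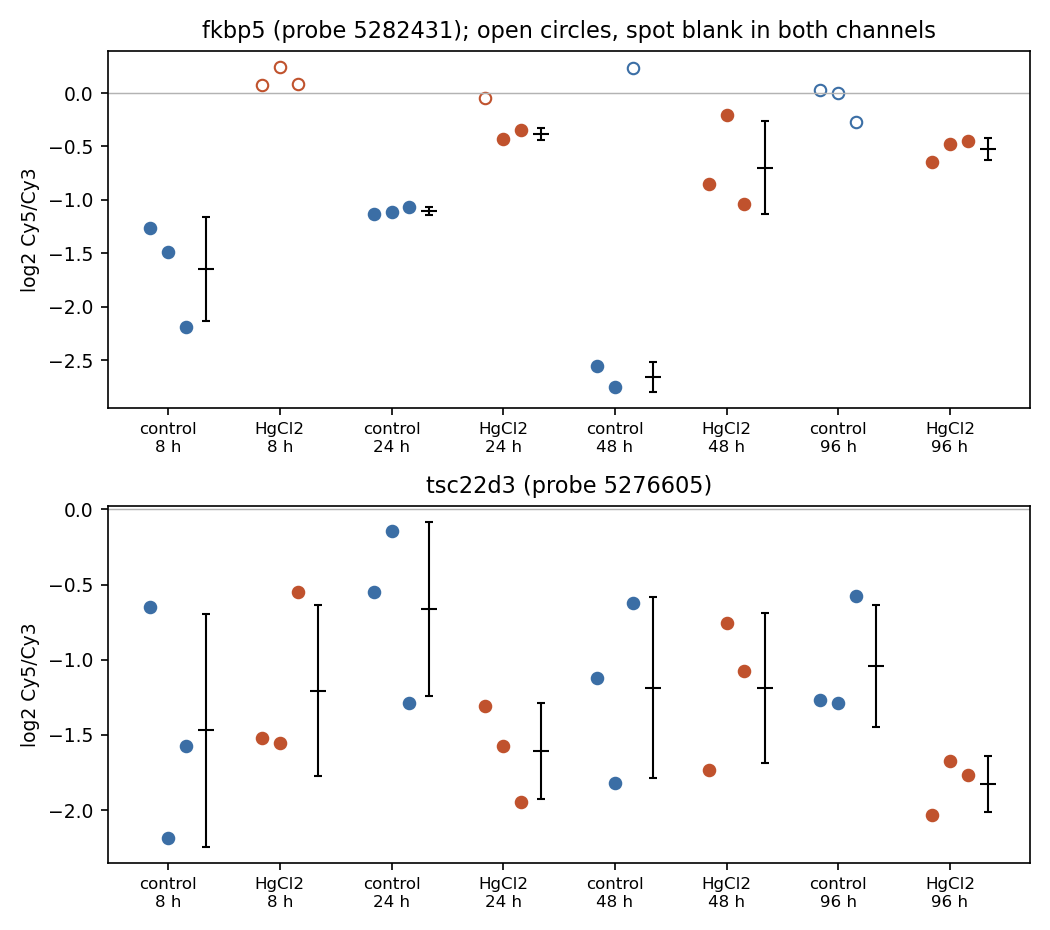
The log2 ratio of Cy5 to Cy3 on each array for fkbp5 (top) and tsc22d3 (bottom), with group mean and SD over spots not blank; open circles mark the 8 arrays whose fkbp5 spot was blank in both channels. Measured fkbp5 values run from -2.75 to -1.07 in controls and from -1.04 to -0.21 in exposed arrays, and tsc22d3 ratios from -2.18 to -0.15.

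Genes that glucocorticoids are known to regulate in vertebrate cells were next followed as a list, 36 of 90 of them on the array. This list and those below were written with earlier results of these data known. Their counts beside the shares of all probes are therefore a description. At 8 h 2 were higher and 0 lower at an adjusted p under 0.05, when 0.624% of all probes were higher and 0.349% lower. At 24 h 9 were higher and 3 lower, against 6.61% and 4.23% of all probes. The 48 h count was 5 higher and 0 lower (all probes, 5.29% and 3.37%), and the 96 h count was 6 higher and 0 lower (all probes, 7.48% and 5.42%). The median difference of the list was 0.09, 0.12, 0.29 and 0.15 in the order of time, beside medians of all probes of 0.0141 or less, and 20, 20, 25 and 23 of its 36 genes had a positive difference. On the average of the 4 times 14 were higher and 4 lower, with 17.7% and 13.8% of all probes. Leaving out 1 array took the number called down to 0 at 8 h (without exposed array 1) and at 48 h (without control array 1), to 6 at 24 h (without exposed array 2) and to 3 at 96 h (without control array 3).

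On the average of the 4 times the most raised gene of the list was igfbp1a, a liver-secreted binding protein of insulin-like growth factors. Its log2 ratio ran from -4.54 to -1.52 in controls, with a median of -3.43, and from -1.73 to 0.40 in exposed livers, with a median of -0.76. The difference was 2.81 (adjusted p = 0.00746), 3.68 (adjusted p = 0.000101), 1.62 (adjusted p = 0.0403) and 2.71 (adjusted p = 0.000897) at 8, 24, 48 and 96 h, with SE 0.48. 11 of 12 exposed arrays stood above every control, and the calls of 24 and 96 h stood with any array left out, while those of 8 h (adjusted p = 0.0643 without exposed array 1) and 48 h did not.

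The gluconeogenic gene pck1, which encodes phosphoenolpyruvate carboxykinase, differed by 1.84 (adjusted p = 0.22), 2.93 (adjusted p = 0.00737), 2.66 (adjusted p = 0.0173) and 2.36 (adjusted p = 0.0239), with SE 0.67. At each time its 3 exposed arrays lay above the 3 controls, which 9.44%, 14.7%, 15.9% and 19.4% of all probes did from 8 to 96 h. For pck1, 9 of 12 exposed arrays lay above all controls. Its call at 24 h was lost without exposed array 2 (adjusted p = 0.0506), and those of 48 and 96 h were lost without any one of 3 and 4 of the arrays. The transaminase gene gpt rose by 1.42, 1.23, 0.82 and 1.06 (SE 0.25) with adjusted p of 0.00783, 0.00304, 0.0435 and 0.00755. For gpt, 12 of 12 exposed arrays exceeded every control, as for 1.06% of all probes. Its 8 h call was lost without exposed array 1 (adjusted p = 0.0651) and its 48 h call without any one of 4 arrays (adjusted p up to 0.2), and in the Cy5 channel alone the 48 h value was 0.18 (adjusted p = 0.794). A second gpt probe gave 0.81, 1.07, 0.90 and 1.31, with adjusted p of 0.157, 0.0118, 0.0381 and 0.00258.

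Of the feedback inhibitors of cytokine signalling, socs3b rose by 2.61, 1.89 and 2.05 at the 3 later times (SE 0.45, adjusted p = 0.000954, 0.0127 and 0.00481), with 11 of 12 exposed arrays above all controls. In the authors' value table these calls were lost (adjusted p = 0.117, 0.95 and 0.218) and the 48 h value was 0.22. Its relative socs3a rose at 24 h by 1.56 (SE 0.39, adjusted p = 0.0133). The gene hif1al, of the hypoxia-inducible factor alpha family, rose by 2.09, 1.15 and 1.21 at 24, 48 and 96 h (SE 0.33, adjusted p = 0.000416, 0.0326 and 0.0175), though by 0.63 at 96 h without background correction (adjusted p = 0.173). Called at 24 h were mknk2b, a kinase of the translation factor eIF4E (1.86, SE 0.47, adjusted p = 0.0145), and the transaminase got1 (1.69, SE 0.48, adjusted p = 0.0284). Both also had positive differences at 48 and 96 h that did not pass (adjusted p = 0.156 and 0.123 for mknk2b, 0.147 and 0.0591 for got1). The mknk2b call was lost without exposed array 1 (adjusted p = 0.0522) and in the authors' value table (adjusted p = 0.0711). The got1 call was lost without any one of 5 arrays (adjusted p up to 0.129).

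Some named genes of the list moved otherwise. The 3 that fell at 24 h, named here since they are the whole of that count, were the circadian repressor bhlhe40 (-1.27, adjusted p = 0.0424), the stress gene gadd45ab (-1.13, adjusted p = 0.0252) and sesn1, a restraint on mTOR signalling (-0.84, adjusted p = 0.0357). Pdk4, which holds back pyruvate oxidation, rose by 1.15 at 24 h (adjusted p = 0.0273) and tat, the tyrosine transaminase long used as a reporter of glucocorticoid action in rat liver, by 1.51 at 96 h (adjusted p = 0.0202), but tat differed by -0.27, -0.19 and 0.55 before that. Per1b, per3 and klf9, direct targets of the receptor in mammals, passed the test at none of the 4 times, with differences of 0.09 to 0.67, 0.59 to 1.85 and 0.54 to 1.17, though each passed on the average of the times (0.44, 1.17 and 0.82, adjusted p = 0.00936, 0.00566 and 0.00707). These genes were chosen after their values were seen. On that average the list genes called lower were anxa1b, cdkn1ba, bhlhe40 and sesn1, 4 beside 14 higher. Of all probes 13.8% were lower and 17.7% higher.

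A list of receptor partners and coregulators had 24 of its 50 genes on the array. It also held tradd, an adaptor of another receptor, described below. At 8 h the limma test was passed by 0 (1 at an unadjusted p under 0.05, and 0 by the methods' t-test). At 24 h 3 were higher and 2 lower, beside 6.61% and 4.23% of all probes. The 4 genes called at 48 h and the 6 at 96 h were each higher, beside 5.29% and 7.48% of all probes. On the average 10 were higher and 1 lower, beside 17.7% and 13.8%. With 1 array left out the number called fell to 1 at 24 h (without control array 2), at 48 h (without exposed array 1) and at 96 h (without control array 2). The heat shock genes among them were hspa8, whose differences were 0.80 (48 h) and 0.97 (96 h) (SE 0.24, adjusted p = 0.0446 and 0.0117), hsp70l, higher by 1.68 at 96 h (SE 0.48, adjusted p = 0.0252) but by 0.81 without exposed array 2, and hsp90ab1, the chaperone that keeps the receptor able to bind hormone, higher by 0.87 at 24 h (SE 0.20, adjusted p = 0.00826). A second hsp90ab1 probe gave 0.50 at 24 h (adjusted p = 0.135), and with all 12 controls the first gave 0.37 (adjusted p = 0.242). With arrays centred on their median in place of loess, the values of hspa8 were 0.56 and 0.66 (adjusted p = 0.23 and 0.128) and that of hsp90ab1 was 0.60 (adjusted p = 0.172).

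Stip1, the adaptor between the HSP70 and HSP90 proteins, rose by 0.92 (48 h) and 0.73 (96 h) (SE 0.21, adjusted p = 0.0101 and 0.0276), and its 48 h value was 0.49 (adjusted p = 0.346) in the Cy5 channel alone. The cochaperone dnajb1b was higher by 0.77 at 24 h (adjusted p = 0.0323), though its second probe gave 0.05 (adjusted p = 0.95) and Cy5 alone 0.48 (adjusted p = 0.397), and stub1, a ubiquitin ligase of chaperone clients, by 1.47 at 96 h (adjusted p = 0.0429), or 0.71 (adjusted p = 0.285) without exposed array 3. The corepressor gene nrip1b, known from mammals to bind nuclear receptors, was higher by 1.32 at 48 h (adjusted p = 0.000373) and by 0.71 at 96 h (adjusted p = 0.0236), the latter being 0.45 (adjusted p = 0.163) without exposed array 3 and 0.45 (adjusted p = 0.123) without background correction. At 24 h smarcb1a was higher (0.78, adjusted p = 0.0106) while its paralogue smarcb1b was lower (-0.89, adjusted p = 0.0187), and tradd, an adaptor of the tumour necrosis factor receptor, was lower as well (-0.70, adjusted p = 0.0443). The last 3 were chosen after their values were seen.

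The 14-3-3 gene ywhaba, whose protein binds phosphorylated partners, differed by 0.12, 0.46, 1.22 and 2.18 from 8 to 96 h (SE 0.30, adjusted p = 0.922, 0.367, 0.0155 and 8.94e-05). On the 4 control arrays with a blank fkbp5 spot, array 3 of 48 h and those of 96 h, ywhaba read -1.90, -1.46, -1.89 and -1.54. The 8 other controls lay between -0.42 and 0.31 and the exposed arrays between 0.02 and 0.75. The 4 exposed arrays with a blank fkbp5 spot did not read low. They gave 0.29, 0.09 and 0.08 at 8 h and 0.02 on array 1 of 24 h. With all 12 controls in place of the 3 of its time, the 48 h difference was 1.04 (adjusted p = 0.0628) and the 96 h difference 1.19 (adjusted p = 0.0229), and without control array 3 the 48 h value was 0.69. At 96 h all 3 controls and no exposed array had the spot blank, so treatment and those arrays cannot be told apart. Set against 8 h, the difference of the 23 named list genes changed in 0 by 24 or 48 h (7 and 6 at an unadjusted p under 0.05 in limma) and in ywhaba alone by 96 h, where the shares of all probes that changed were 0%, 0.0918% and 0.991%.

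Genes around the SGK1 kinase, its upstream lipid kinase and mTOR, its substrates and the sodium pump, were on the array for 25 of 75. At 8 h 0 passed the limma test, with 3 at an unadjusted p under 0.05 and 0 by the methods' t-test. At 24, 48 and 96 h 3, 1 and 1 of the 25 were higher, beside 6.61%, 5.29% and 7.48% of all probes, and 1, 1 and 2 were lower, beside 4.23%, 3.37% and 5.42%. On the average 4 were higher and 6 lower, beside 17.7% and 13.8%, with list medians of 0.11, -0.04, -0.05 and -0.16 from 8 to 96 h. Among the kinase genes, pik3cb, a catalytic subunit of PI3-kinase, rose by 1.41 (24 h) and 1.29 (96 h) (SE 0.34, adjusted p = 0.0103 and 0.0153), and gsk3ab, a glycogen synthase kinase that SGK1 can phosphorylate in mammals, by 0.55 (24 h) and 0.58 (48 h) (SE 0.15, adjusted p = 0.0214 and 0.0211). The 24 h value of pik3cb was 0.61 (adjusted p = 0.0731) without background correction and 2.24 (adjusted p = 0.0519) with plain subtraction, and the 48 h value of gsk3ab was 0.32 (adjusted p = 0.54) in Cy5 alone. The regulatory subunit pik3r1 differed by -1.49 at 24 h (SE 0.32, adjusted p = 0.00484), with its other probe at -0.24 (adjusted p = 0.535) and with -0.74 (adjusted p = 0.117) against all 12 controls.

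The sodium pump genes parted. The α subunit gene atp1a1a.4 rose by 1.18 at 24 h (SE 0.24, adjusted p = 0.0031), whereas atp1a1a.3 differed by -0.56 at 96 h (SE 0.18, adjusted p = 0.0407), and of the β subunits atp1b1b differed by -1.14 at 48 h (SE 0.33, adjusted p = 0.0355). In Cy5 alone the values of atp1a1a.3 and atp1b1b were -0.22 and -0.71 (adjusted p = 0.569 and 0.205). Binding of one paralogue to the probe of another was not tested. For atp1b3a the 96 h value was -2.21 (SE 0.44, adjusted p = 0.00223), but its spot was blank on 16 of 24 arrays, and without blank spots it was -1.29 (adjusted p = 0.151), and in Cy5 alone -0.95 (adjusted p = 0.341).

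Genes of cortisol synthesis and metabolism were few on this array, 9 of 52, and the limma fit called 0 of them at each time, with 2, 2, 2 and 1 at an unadjusted p under 0.05 and 0 by the methods' t-test. Their median difference was -0.12, -0.14, 0.04 and 0.01 from 8 to 96 h. Over the average of the 4 times, at which 13.8% of all probes were lower, hsd17b8 was the one called, at -0.35 (SE 0.11, adjusted p = 0.018). It is counted here by its place on the list, and a part of hsd17b8 in cortisol metabolism was not tested.

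**Figure D5:**
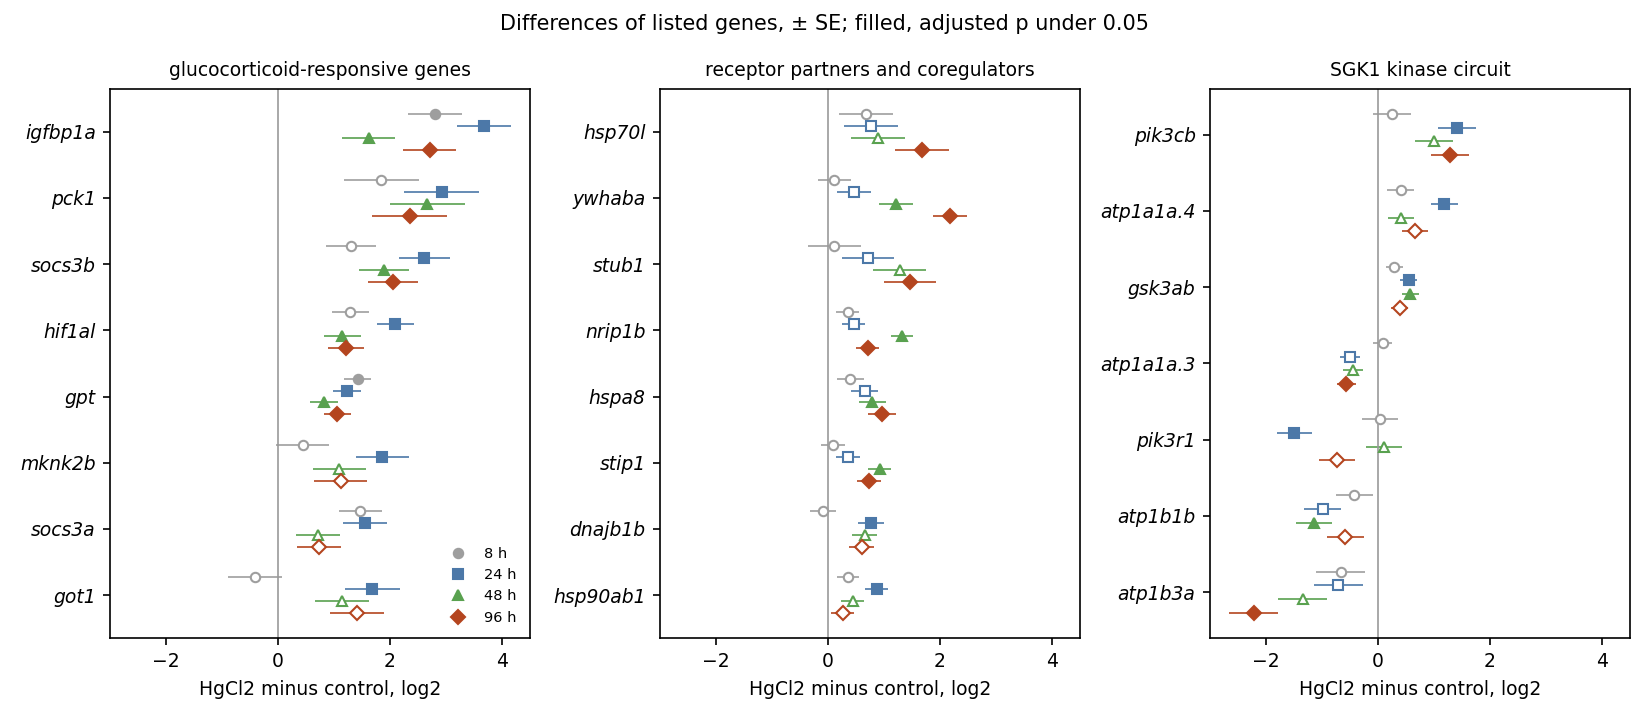
Exposed minus control differences (log2, ± SE, 3 arrays a group) of the listed genes named by rule, at 8, 24, 48 and 96 h. Filled symbols mark an adjusted p under 0.05. The difference of igfbp1a reaches 3.68 at 24 h, and that of atp1b3a is -2.21 at 96 h. The atp1b3a spot was blank on 16 of the 24 arrays of all times, and its call was lost without blank spots.

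Across the named genes of these lists, 41 calls were made at single times. Of these 13 stood whichever array of that time was left out, and 28 did not. Those that stood were igfbp1a, socs3b and gpt at 24 and 96 h, hif1al, hsp90ab1, pik3r1 and atp1a1a.4 at 24 h, nrip1b at 48 h, and ywhaba and atp1b3a at 96 h. Standing here refers to left-out arrays only, and other settings lost some of these calls. The atp1b3a call was lost once blank spots were left out. With all 12 controls the 24 h calls of hsp90ab1 and pik3r1 were lost (adjusted p = 0.242 and 0.117). In the authors' value table those of socs3b were lost (adjusted p = 0.117 at 24 h and 0.218 at 96 h). The methods' t-test lost calls too, such as those of igfbp1a (adjusted p = 0.0765 at 24 h and 0.0849 at 96 h).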

How the data were processed

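Liver RNA of 24 samples was measured on spotted two-colour oligonucleotide arrays. Per the file headers the intensity values are scanner medians of spot and local background, deposited without normalisation, beside the percent of a spot's pixels above background plus 2 SD. The log2 values of the authors' table, as deposited, are ratios of the mean signals after background subtraction, each array scaled by 1 factor, without the lowess step their methods name. The authors tested by ANOVA and t-test.

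Intensities were corrected by normexp (offset 50) and loess in limma 3.58.1 under R 4.3.3, with 172 beta-actin spots at weight 0, then 16340 probes were fitted as 8 group means (16 residual degrees of freedom). A call was a Benjamini-Hochberg adjusted p under 0.05 over all probes. Of these probes 5916 had 1 symbol, 75 several and 10349 none, and a listed gene was read by its brightest probe. Named were all member probes, up to 8 called genes a list by absolute mean difference, list genes the paper names, and the 5 most alike and 3 most opposite genes to the brightest sgk1 and nr3c1 probes. Members and lists were chosen with earlier results of these data known. Nothing in the labels says how far the spread between pools of a group is technical, and p-values measure only that spread. Replicate numbers were not taken as pairs in the main fit. Deviations from the group mean correlated at r of -0.0322 to 0.189 over 12 same-number pairs, and at -0.16 to 0.0883 between different numbers. With 3 arrays a group these values cannot exclude a pairing. The fits were tested on simulated data with independent noise on each probe and array. Those data held no blank spots or other array traits, so the test does not bear on such traits. Figures were drawn with matplotlib 3.10.9 in Python 3.11.15. The files name no scan or slide batch, so none was fitted. Probe sequences and genome positions were not used here.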

Additional observations from a re-analysis of the deposited data

Results flagged for a closer look

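For ywhaba the exposed minus control difference changed between 8 and 96 h by 2.063 (adjusted p = 0.0198), the 1 change that passed the limma test among 23 named list genes and 3 later times set against 8 h. The 3 controls of 96 h and control array 3 of 48 h, all with a blank fkbp5 spot, read between -1.90 and -1.46, and the 8 other controls between -0.42 and 0.31. The 4 exposed arrays with that spot blank, of 8 and 24 h, read between 0.02 and 0.29. The part of the arrays with a blank fkbp5 spot in the change was not tested. The change no longer passed without control array 1 of 8 h (1.93, adjusted p = 0.0627), control array 2 of 96 h (1.93, adjusted p = 0.0656) or exposed array 2 of 8 h (2.03, adjusted p = 0.0528).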

How the results depend on the processing

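Of 544 member differences under other settings, 529 moved by less than the spread between replicates. Beyond that spread 11 kept their sign and 4 turned it. The spread, taken as the residual SD of a probe, is wider than the SE of its differences. The 529 include values that a setting could not change. Aquantile between arrays, leaving out dim probes, the replicate number as a block and fits of a single time returned the main value for every member. All 12 controls likewise returned the main average over the times. The 529 also include small differences that turned sign within the spread. Examples are probe 5270877 at 24 h, -0.02 in the main fit and 0.07 with median centring, and tsc22d3 at 8 h, 0.26 and -0.12 with all 12 controls. For sgk1 and the brightest nr3c1 probe none turned. Those that moved or turned beyond the spread were differences of the 3 nr3c1 probes, fkbp5 and tsc22d3. Signal over background limits fkbp5 at the arrays with a blank spot. Leaving out blank spots and the settings for the ywhaba change were chosen after seeing the data. The cause of these changes was not tested. Other settings that are not named below (Aquantile between arrays, dim probes left out, any probe of a gene) changed no count by over 1.5 times.

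With all 12 controls in place of the 3 of a time, nr3c1 probe 5279858 gave 2.70 at 24 h and 4.04 at 96 h, tsc22d3 -0.52 at 24 h, and probe 5272387 -0.32 at 8 h. Called probes then numbered 830, 2472 and 3860 at 8, 48 and 96 h, glucocorticoid-responsive genes 6, 11 and 11, receptor partners 3, 10 and 10 at 24, 48 and 96 h, SGK1 circuit genes 1, 4 and 8 at 8, 48 and 96 h, and cortisol genes 1 at 48 h. Without background correction probe 5272387 gave -0.28 at 8 h, and 0 cortisol genes were called on the average. Plain subtraction gave it -1.17 and -0.63 at 8 and 24 h and fkbp5 2.12 at 48 h, with 412 probes and 1 SGK1 circuit gene called at 8 h, and 3 glucocorticoid-responsive genes and 1 SGK1 circuit gene at 48 h. In the authors' table the 8 h value of probe 5272387 was -1.28, called probes were 557 and 845 at 8 and 48 h, glucocorticoid-responsive genes 7, 1 and 3 at 24, 48 and 96 h, and receptor partners 1, 2 and 3.

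In the Cy5 channel alone probe 5272387 gave -0.35 at 48 h and 0.41 at 96 h, fkbp5 -1.13 at 24 h and 2.36 at 48 h, and tsc22d3 0.50 at 96 h. Called probes were 2650 and 3711 at 8 and 96 h, glucocorticoid-responsive genes 12 at 96 h, receptor partners 5, 0 and 10 at 8, 24 and 96 h, SGK1 circuit genes 5 and 0 at 8 and 48 h, and cortisol genes 1, 1, 2 and 4 at 8, 48 and 96 h and on the average. Without blank spots fkbp5 gave 1.96 at 48 h, and 6 SGK1 circuit genes were called on the average. With median centring 256 probes and 4 glucocorticoid-responsive genes were called at 8 h and 2 receptor partners at 24 h. Fits of the 6 arrays of a time called 0, 940 and 900 probes at 8, 24 and 48 h, 0, 2 and 10 glucocorticoid-responsive genes at 8, 48 and 96 h, and 2, 2 and 2 receptor partners at 24, 48 and 96 h. The methods' t-test after Benjamini-Hochberg called 1, 12, 2 and 706 probes from 8 to 96 h, 0, 1, 0 and 3 glucocorticoid-responsive genes, 0, 0 and 1 receptor partners from 24 h on, and 0 SGK1 circuit genes at each of those times.

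With 1 array left out, called probes ranged from 20 to 189 at 8 h (lowest without exposed array 1), 987 to 2282 at 24 h (control array 2), 603 to 1342 at 48 h (exposed array 1) and 1073 to 2007 at 96 h (control array 2). Glucocorticoid-responsive genes ranged over 0 to 4, 6 to 11, 0 to 7 and 3 to 8, receptor partners over 1 to 4, 1 to 4 and 1 to 8 from 24 h on, SGK1 circuit genes over 2 to 5, 0 to 3 and 1 to 2, and cortisol genes over 0 to 1 at each time and 1 to 3 on the average. The difference of nr3c1 probe 5270877 at 96 h ranged from -1.03 to 0.18, that of fkbp5 at 48 h from 0.46 to 1.96, and the ywhaba change from 1.93 to 2.23. With the replicate number as a block, 112, 1604, 1234 and 1906 probes were called from 8 to 96 h and 4990 on the average, with 2, 11, 4 and 6 glucocorticoid-responsive genes, 0, 4, 3 and 5 receptor partners and 0, 6, 2 and 2 SGK1 circuit genes. The labels do not say that equal numbers mean a pair.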
